A study of Mus musculus with 19 samples.

Results

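The mitochondrial ribosomal protein genes were taken as every protein-coding gene of the expression table whose symbol is Mrpl or Mrps followed by a number, which gave 78 genes, 49 named Mrpl and 29 named Mrps, of 25891 in the table. They were measured in pools of mouse oocytes arrested in metaphase II of meiosis (MII) and in 2cell embryos from females of 2 genotypes at the gene for CPEB3, an RNA-binding protein of the cytoplasmic polyadenylation element-binding family. There were 5 libraries of MII oocytes labelled Het, 5 of MII oocytes labelled KO, 5 of 2cell embryos labelled Het and 4 of 2cell embryos labelled KO, each made from 5 cells. The study dealt with what CPEB3 does in the oocyte and the early embryo. The KO label stands for an oocyte-specific conditional knockout, CPEB3 LoxP/LoxP with 1 ZP3-Cre transgene, in which Cre is driven by the promoter of a zona pellucida gene and so acts once oocyte growth has begun, while the surrounding somatic cells keep the gene. CPEB3 protein made before Cre acts can remain in these oocytes. The Het label stands for heterozygous, written CPEB3+/− in the study, and whether these females carried Cre is not given in the labels. The methods name CPEB3 LoxP/− with 1 ZP3-Cre transgene, or CPEB3+/+, as wild type and do not define Het apart from that. All females were BL6, 6 to 10 weeks old, and were given 5 IU PMSG and then 5 IU hCG 48 h later. Embryos were fertilised in vivo, cultured in M16 medium and taken 37 h after hCG, so that they also hold a paternal genome. The labels do not say that the libraries of a group came from separate animals, so the p-values below measure only the spread between these libraries, which may be technical.

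Mitochondria make a small set of respiratory chain proteins on their own ribosome, whose RNAs come from mitochondrial DNA and whose proteins are all encoded in the nucleus and imported. The small subunit decodes the messenger RNA, and the large subunit joins the amino acids and passes the new protein into the inner membrane. Some of the proteins have counterparts in bacterial ribosomes and others exist in mitochondria alone. The oocyte carries the mitochondria that the embryo inherits, and transcription is silent from the end of oocyte growth until embryonic genome activation, which in the mouse is under way at the 2cell stage. Symbols do not always give the place of a protein: Mrps30 and Mrps18a encode proteins of the large subunit, and Mrps36 encodes a subunit of the oxoglutarate dehydrogenase complex of the citric acid cycle.

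Values are FPKM, fragments per kilobase of exon relative to all mapped fragments of the library. The depth, an estimate from the size of 1 fragment that rests on the part of low values near whole fragments, was 17.12 to 23.5 M fragments a library, at which 10 fragments would make 0.212 FPKM for a gene of the members' median exon length of 2394 bases. The oocyte markers summed to 807 to 1130 FPKM in MII and 98.8 to 159 in 2cell libraries, and the 2cell markers to 37.8 to 61.1 and 388 to 580. Of 10 cumulus and granulosa cell markers, 6 were in the table and their sum did not pass 0.604 FPKM in any library. Of the 3 blood markers only Hba-a1 was in the table, at up to 0.428 FPKM in MII and 34.3 to 98.6 in 2cell libraries, and its part in the stage comparison was not tested. Cpeb3 itself, summed over all its exons, was at 0.0755 ± 0.024 FPKM (SD, n = 5) in the MII libraries labelled Het and 0.162 ± 0.0325 (n = 5) in those labelled KO, the opposite order to the labels (log2 0.53 ± 0.123, adjusted p = 0.0144), and a sum over the whole gene does not isolate the deleted part. In 2cell libraries it was at 0.0303 ± 0.0149 (n = 5) and 0.0554 ± 0.0129 FPKM (n = 4). The genotypes are therefore given as labelled throughout, and every direction below rests on those labels.

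The members are short genes spread over 17 chromosomes, with 11 on chromosome 11, 8 on chromosome 17 and 7 on chromosome 6. Their longest annotated transcript had a median of 1368.5 bases against 2952 for all annotated protein-coding genes of the table, and their longest 3′UTR a median of 492.5 against 1168 bases, at a like GC content of 49.9% and 49.7%. A neighbour on the other strand started within 1000 bases of 19 members (24.4%, against 8.84% of protein-coding genes), as in the pairs Mrps12 and Sars2, 172 bases apart, and Mrpl50 and Zfp189, 83 bases apart. In the GENCODE vM21 annotation the exons of 33 members overlapped those of another gene, on either strand. As the counting is not stated to use strand, their values can hold reads of the neighbour. RefSeq promoters of 300 bases (250 before the start and 50 after it, build GRCm38.p6) were at hand for 69 members, 75 promoters in all. Read on both strands, the ETS family motif CCGGAAG, which the nuclear respiratory factor GABPA binds, stood in 34.7% of them against 8.86% of all promoters of that length and 11.6% of those of protein-coding genes. The NRF1 motif GCGCATGC stood in 10.7% against 2.71% and 3.52%, and the YY1 motif AAGATGGCG in 10.7% against 1.4% and 1.83%. At least 1 of the 3 was found in 48.0% of the members' promoters, in 12.1% of all and in 15.7% of those of protein-coding genes. These are matches of letters and not measured binding, and they were held by members that rose into the 2cell stage (52.4% of 21 promoters), fell (41.7% of 24), were called in 1 genotype (33.3% of 15) or in neither (69.2% of 13).

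The motifs are shown in 5 members without long exonic stretches in this window, 3 that rose into the 2cell stage and 2 that fell, as the 100 bases before the RefSeq start on the strand of the gene, with matches to the 3 motifs in capitals. The first 3 belong to Mrpl34 (chr8:71464826-71464925, + strand), Mrpl22 (chr11:58171564-58171663, + strand) and Mrpl17 (chr7:105811088-105811187, − strand), which rose. The last 2 belong to Mrpl58 (chr11:115403652-115403751, + strand) and Mrps27 (chr13:99344686-99344785, + strand), which fell. The rise of Mrpl17 in Het libraries (0.61, adjusted p = 0.041) was called in 3 of 10 fits without 1 library. It lost its call without Het MII replicates A, B, C or E or Het 2cell replicates C, D or E (adjusted p at most 0.102), with scaling to the sum (0.18, adjusted p = 0.549), with no filter (adjusted p = 0.0582) and with a pseudocount of 1 (adjusted p = 0.0535). That of Mrpl34 was lost in Het libraries with scaling to the sum (0.37). A pseudocount of 1 brought Mrpl17 and Mrpl22 in KO libraries and Mrpl58 and Mrps27 in both genotypes under the 1.5-fold limit.
Mrpl34: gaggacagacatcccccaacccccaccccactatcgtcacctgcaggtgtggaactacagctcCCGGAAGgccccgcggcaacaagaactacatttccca
Mrpl22: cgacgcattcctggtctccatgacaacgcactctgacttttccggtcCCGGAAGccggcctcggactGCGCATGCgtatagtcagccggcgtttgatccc
Mrpl17: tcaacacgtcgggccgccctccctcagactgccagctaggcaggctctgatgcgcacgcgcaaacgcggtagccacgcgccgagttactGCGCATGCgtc
Mrpl58: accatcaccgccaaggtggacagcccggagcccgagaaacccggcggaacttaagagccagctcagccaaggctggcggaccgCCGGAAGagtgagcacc
Mrps27: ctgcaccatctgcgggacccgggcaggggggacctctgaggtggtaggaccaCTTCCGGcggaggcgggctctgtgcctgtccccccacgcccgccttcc

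The levels of the members, compared per length as FPKM, ranged widely. In the MII libraries labelled Het the median over members of the group mean was 0.957 FPKM, the quartiles were 0.37 and 3.92, and the highest member stood 82.7 times above the median. Mrpl18, a large subunit protein whose bacterial counterpart binds 5S rRNA, was highest at 79.1 ± 8.38 FPKM (SD, n = 5), followed by Mrpl34 at 55.2 ± 7.32, Mrpl53 at 52.4 ± 7.73, Mrps14 at 28.9 ± 1.89 and Mrps33 at 15.99 ± 1.75. These 5 held 59.1% of the members' summed FPKM. Between neighbours in that order only Mrpl34 and Mrpl53 overlapped across the 5 libraries. In the 2cell libraries labelled Het the order was Mrpl34 (125.1 ± 25.1 FPKM), Mrpl41 (61.2 ± 9.15), Mrpl18 (28.8 ± 4.25), Mrpl53 (27.4 ± 3.79) and Mrpl43 (24.3 ± 4.11), with 57.6% of the sum, and here Mrpl18, Mrpl53 and Mrpl43 overlapped. At the other end, Mrpl33 did not pass 0.0482 FPKM in any library, and Mrpl23 did not pass 0.19. These 2 members were too low to test in any comparison. Mrps28 and Mrps34 were too low to test between genotypes in MII, and Mrpl1, Mrps5, Mrps9, Mrps27, Mrps31 and Mrps35 in 2cell libraries, where none of the 6 passed 0.162 FPKM. In MII libraries labelled Het, Mrpl1 had been at 0.469 ± 0.0777 FPKM and Mrps35 at 0.83 ± 0.0978. Processed pseudogenes, copies of a messenger RNA put back into the genome, stood higher than some of their genes: that of Mrpl23 was at 9.74 ± 3.13 FPKM in MII libraries labelled Het, and Mrpl48-ps at 57.9 ± 11.6. Reads of such near-identical copies can be split between gene and copy, so the levels of Mrpl23, Mrpl48 and Mrps36 are uncertain.

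**Figure D1:**
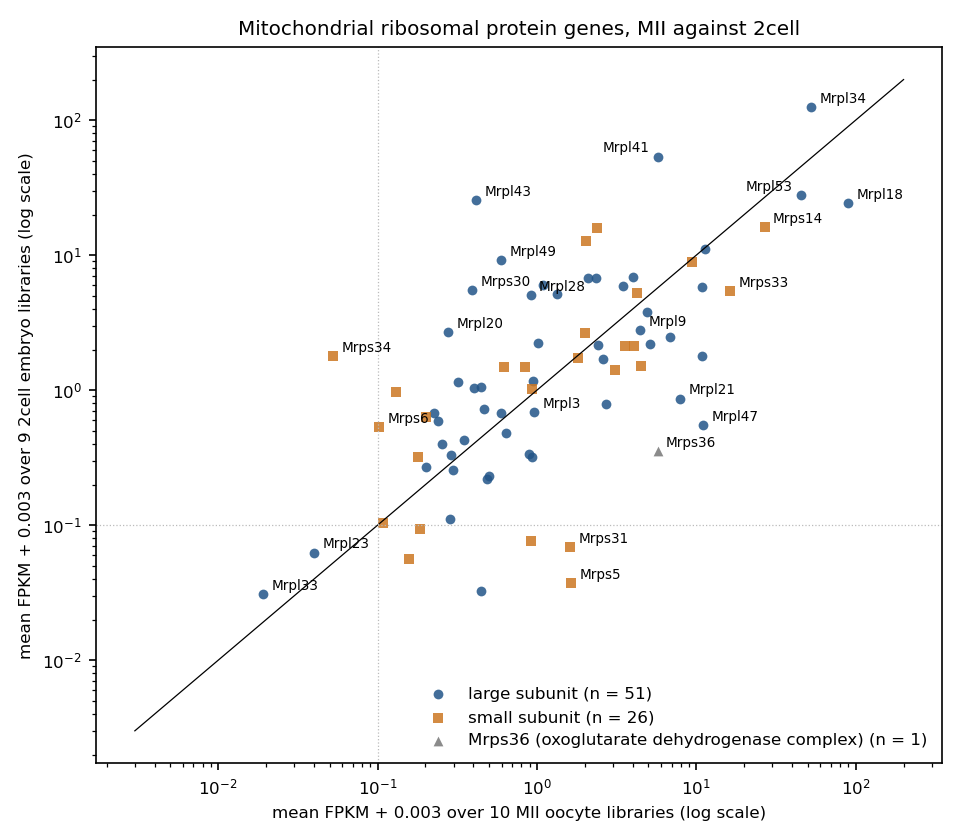
Mean FPKM of each of the 78 members over the 10 MII libraries (x axis) and the 9 2cell libraries (y axis), both on log scales with 0.003 added, with circles for the large subunit, squares for the small subunit and a triangle for Mrps36. The diagonal marks equal levels and the dotted lines 0.1 FPKM. Mrpl43, Mrpl41 and Mrps34 lie far above the diagonal, and Mrpl47, Mrps36, Mrps31 and Mrps5 far below it.

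The summed FPKM of the 78 members, as deposited, overlapped between all groups. It was 392.0 ± 35.4 (range 364.8 to 434.3, n = 5) in MII libraries labelled Het and 402.0 ± 51.7 (331.3 to 470.8, n = 5) in those labelled KO. In 2cell libraries it was 463.0 ± 33.8 (411.9 to 495.8, n = 5) for Het and 434.0 ± 44.3 (371.4 to 472.1, n = 4) for KO. As the FPKM of all genes added up to more in 2cell libraries, the members' share of that total was 0.456% ± 0.0405 and 0.494% ± 0.0556 in MII against 0.313% ± 0.0296 and 0.359% ± 0.0247 in 2cell libraries, lower rather than higher than in MII. By this share every MII library (0.42% to 0.576%) was above every 2cell library (0.291% to 0.383%). With trimmed-mean scaling factors the sums were 433.0 ± 21.0 and 410.0 ± 39.2 in MII and 438.0 ± 27.5 and 398.0 ± 37.5 in 2cell libraries. FPKM is relative to each library, so fewer cells and less RNA per cell cannot be told apart, and neither can a change in the total RNA of the cell.

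**Figure D2:**
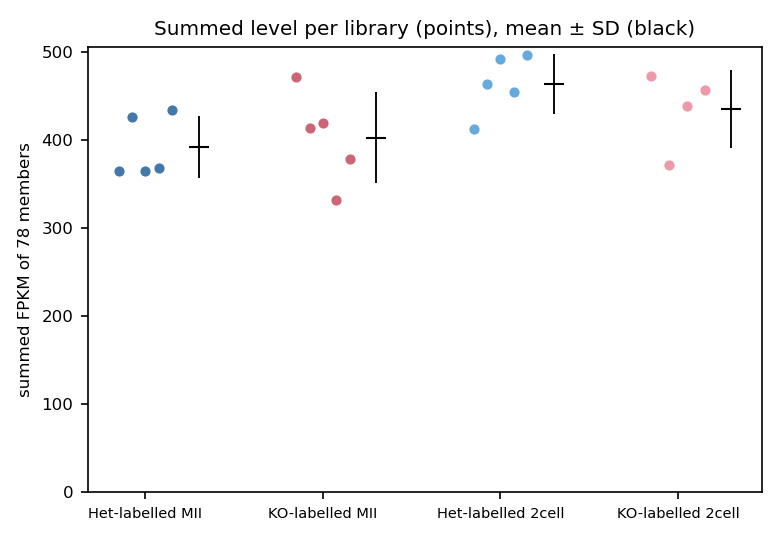
Summed FPKM of the 78 members as deposited (y axis, from 0) in each library (points) of the 4 groups (x axis), with the group mean ± SD in black. All 19 libraries lie between 331.3 and 495.8 and the groups overlap.

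Between MII oocyte and 2cell embryo, most single members changed, some up and others down. A gene was called when its adjusted p (limma, Benjamini-Hochberg over all genes tested) was below 0.05 and its fold change above 1.5, on the scale of log2(FPKM + 0.1), which understates the change of low genes. Of 76 members tested, 55 were called in the libraries labelled Het, 25 higher and 30 lower in 2cell embryos, and 53 in those labelled KO, 25 higher and 28 lower. This is 72.4% and 69.7% of the members, beside 66.4% and 65.2% of all genes tested. Of all genes, 38.2% were higher and 28.2% lower in the Het libraries, and 38.2% and 27.0% in the KO libraries. In both genotypes 23 members rose and 26 fell, 10 were called in 1 genotype and 17 in neither. The libraries of the 2 stages did not overlap for 51 members in Het (67.1%, beside 58.9% of all genes) and 43 in KO (56.6%, beside 59.3%). The median member changed by -0.09 on the log2 scale in Het and -0.16 in KO, where the median gene changed by 0.21 in both. With each library scaled to its summed FPKM, which moved the median of all genes to -0.17 in Het and -0.07 in KO, 17 members were higher and 38 lower in Het, and 18 and 35 in KO.

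**Figure D3:**
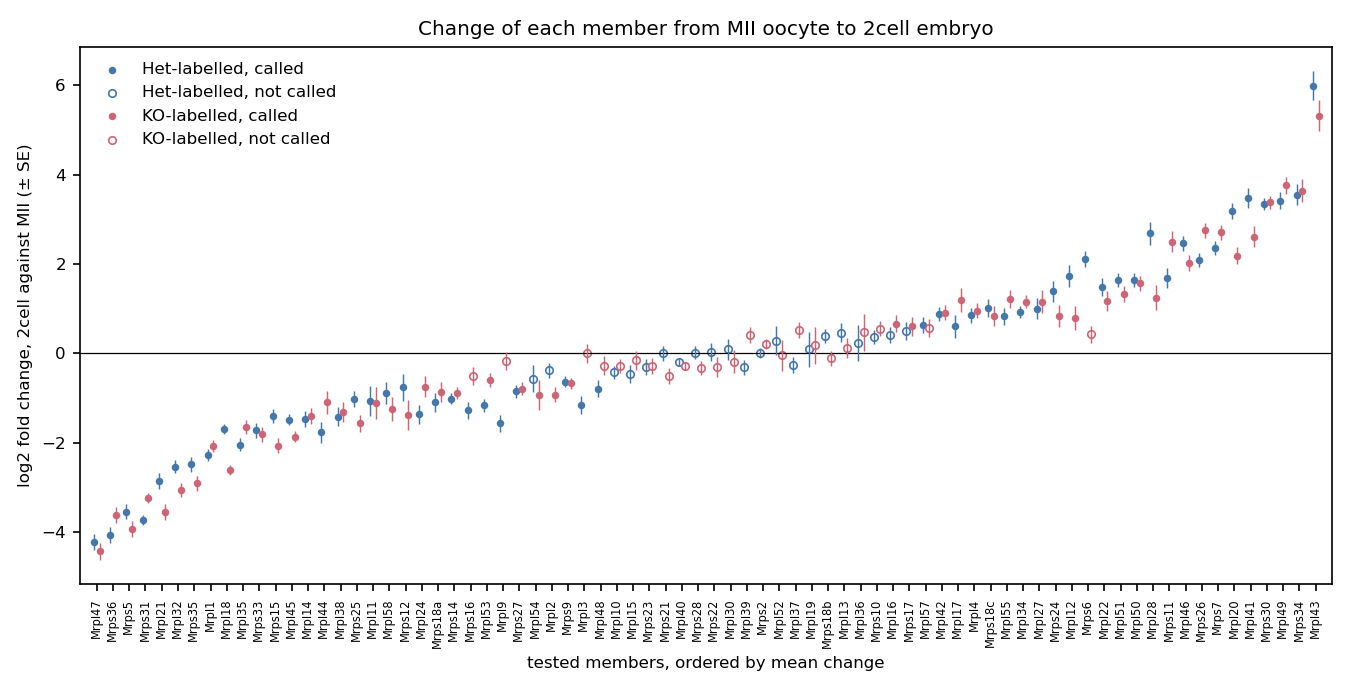
Log2 fold change of 2cell against MII with its SE (y axis) for the 76 tested members, ordered by mean change (x axis), in libraries labelled Het (blue) and KO (red), filled where called. The estimates run from -4.42 for Mrpl47 to 5.99 for Mrpl43, and 49 members are called in the same direction in both genotypes.

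On the scale of log2(FPKM + 0.1) the 5 largest rises shared by both genotypes were those of Mrpl43, Mrps34, Mrpl49, Mrps30 and Mrpl41, all but Mrps34 proteins of the large subunit and all without a bacterial counterpart. Under the alternative settings the Het change of Mrps34 came down to 1.29 and that of Mrps7 stayed at 1.82 or more, so the place of Mrps34 depends on the setting. Mrpl43 (chr19:45005014-45006442, − strand) was at 0.103, 0.267, 0.177, 0.272 and 0.465 FPKM in the MII libraries labelled Het and at 18.7, 23.7, 22.6, 29.0 and 27.7 in the 2cell libraries. The 2 stages lie far apart, with a log2 fold change of 5.99 ± 0.32 (SE, adjusted p = 5.78e-12) in Het and 5.32 ± 0.34 (adjusted p = 8.64e-11) in KO libraries. In the GENCODE annotation its exons overlap those of Twnk, the mitochondrial DNA helicase, but the deposited interval of Twnk (chr19:45006558-45012762) lies outside that of Mrpl43. Twnk was at 0.83 ± 0.22 FPKM in MII and 1.17 ± 0.371 in 2cell libraries labelled Het. Mrpl41 (chr2:24974117-24975098, − strand) went from 4.28, 5.35, 4.9, 3.17 and 5.46 FPKM to 48.6, 61.2, 67.0, 57.0 and 72.4 in Het libraries, with no overlap (log2 3.48 ± 0.22, adjusted p = 7.79e-11, and 2.61 ± 0.23 in KO). Mrps30 (chr13:118378381-118387252, − strand) rose from 0.385 ± 0.096 to 5.46 ± 0.409 FPKM in Het libraries (SD, n = 5 each), by 3.34 ± 0.14 on the log2 scale, and by 3.38 ± 0.15 in KO. Its exons overlap those of B430218F22Rik on the other strand, which rose too, by 1.97 ± 0.437 in Het and 2.89 ± 0.464 in KO libraries. Mrpl49 rose by 3.42 ± 0.18 and 3.76 ± 0.2. Mrps34 (chr17:24895116-24897502), a small subunit protein gene whose exons overlap those of Nme3 and Mapk8ip3, did not pass 0.124 FPKM in any MII library and was at 1.42 to 2.63 in every 2cell library.

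On the scale of log2(FPKM + 0.1) the 5 largest falls were those of Mrpl47, Mrps36, Mrps5, Mrps31 and Mrpl21. Under the alternative settings the Het changes of Mrps5 and Mrps31 shrank to as little as -1.2 and -1.55. That of Mrpl32 stayed at -2.11 or lower, so this order depends on the setting. Mrpl47 (chr3:32725397-32737605, − strand), whose bacterial counterpart is L29 near the exit of the protein tunnel, was at 10.1, 10.0, 10.3, 9.34 and 11.4 FPKM in the MII libraries labelled Het and at 0.608, 0.79, 0.494, 0.44 and 0.449 in the 2cell libraries. Its exons overlap those of Actl6a and Ndufb5. Every MII library was above every 2cell library, and the change was -4.22 ± 0.18 on the log2 scale (adjusted p = 2.25e-13) in Het and -4.42 ± 0.19 in KO libraries. Mrps5 (chr2:127587222-127606829, + strand), a small subunit protein whose bacterial counterpart shapes decoding accuracy, stood at 1.1, 1.51, 1.02, 1.1 and 1.46 FPKM in MII and did not pass 0.0659 in any 2cell library (log2 -3.54 ± 0.16 in Het and -3.93 ± 0.17 in KO). Mrps31 (chr8:22411361-22429665, + strand), a mitochondria-specific small subunit protein, fell from 1.93 ± 0.244 to 0.0726 ± 0.0105 FPKM in Het libraries (log2 -3.72 ± 0.1). Mrpl21 fell by 2.85 on the log2 scale in Het and by 3.54 in KO libraries. Mrps36 (chr13:100735955-100744659, − strand) fell from 7.1 ± 0.994 to 0.397 ± 0.0331 FPKM (log2 -4.06 ± 0.17), and its pseudogenes Mrps36-ps1 and Mrps36-ps2 moved with it, by -4.65 ± 0.702 and -4.68 ± 0.286, so their shares cannot be told apart.

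By place in the ribosome, the large subunit proteins with a bacterial counterpart were divided evenly, with 9 higher and 9 lower in both genotypes among 28 tested, and their mitochondria-specific partners were 8 and 6 of 21. In the small subunit the counts were 4 and 5 of 16 with a bacterial counterpart and 2 and 5 of 10 mitochondria-specific. Of 10609 annotated protein-coding genes tested, 3231 were higher and 2981 lower in both genotypes. Members with a known site or role are given in turn. In the stalk that recruits translation factors, Mrpl12 rose by 1.73 ± 0.25 on the log2 scale in Het libraries (adjusted p = 5.49e-06) and by 0.8 ± 0.27 in KO, Mrpl11 fell by 1.07 and 1.1, and Mrpl10 was called in neither genotype (-0.42 ± 0.14 and -0.28 ± 0.15). Around the peptidyl transferase centre, where amino acids are joined, Mrpl27 rose by 1.0 ± 0.24 and 1.16 ± 0.25, while Mrpl16 was called in KO (0.67 ± 0.19) and not in Het libraries (0.42 ± 0.18). Mrpl45, which holds the tunnel exit at the inner membrane, fell by 1.48 in Het and 1.86 in KO libraries, and Mrpl58, a peptidyl-tRNA hydrolase built into the large subunit, fell by 0.88 and 1.25. Of the 3 paralogs of bacterial S18, Mrps18a fell by 1.09 and 0.87, Mrps18c rose by 1.01 ± 0.2 and 0.84 ± 0.22, and Mrps18b was called in neither (0.4 ± 0.16 and -0.11 ± 0.17). With scaling to the sum Mrpl10 was called in both genotypes, and with the values as deposited Mrps18b was called in Het libraries, where both also passed on the adjusted p alone. With scaling to the sum the KO calls of Mrpl12 (0.4, adjusted p = 0.176) and Mrpl16 (0.27, adjusted p = 0.18), the Het call of Mrpl27 (0.55) and both calls of Mrps18c (0.5 and 0.46) were lost. The KO call of Mrpl12 was also lost with the GC trend removed (0.48, adjusted p = 0.0824) and without KO 2cell replicate D (adjusted p = 0.056), and so was that of Mrpl16 without this replicate (log2 0.54). A pseudocount of 1 ended both calls of Mrpl11, Mrpl27, Mrpl58, Mrps18a and Mrps18c and the KO call of Mrpl16, with changes between -0.37 and 0.57.

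In MII oocytes the genotype comparison called 8 of 74 members tested (10.8%, beside 12.9% of all 10515 genes tested). In libraries labelled KO 2 were higher, Mrps12 and Mrpl21 (5.59% of all genes were higher), and 6 were lower, Mrpl50, Mrps36, Mrpl49, Mrpl39, Mrpl3 and Mrps31 (7.29% of all genes). The share is close to that of all genes. The genotypes did not overlap for 6 members, all lower in KO, or 8.11% beside 16.3% of all genes. The median member was at -0.05 on the log2 scale and the median gene at 0.01. With each library scaled to its summed FPKM, which put the median gene at 0.15, the calls were 3 higher and 3 lower, and with the values as deposited 3 higher and 5 lower.

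Mrpl50 (chr4:49512596-49521093, − strand), a mitochondria-specific large subunit protein, had the largest fall. It was at 1.71, 1.77, 1.95, 1.87 and 1.33 FPKM in libraries labelled Het and at 0.747, 0.863, 1.01, 0.897 and 1.1 in those labelled KO, with no overlap (log2 -0.92 ± 0.15, adjusted p = 0.00324, two-sided exact permutation p = 0.00794, the smallest that 5 against 5 can give). Mrps31 was at 1.87, 2.22, 1.88, 1.58 and 2.09 in Het and 1.54, 1.27, 1.37, 1.13 and 1.26 in KO libraries, again without overlap (log2 -0.61 ± 0.1, adjusted p = 0.00322). Leaving out KO MII replicate D moved its change to -0.58, under the 1.5-fold limit, as did the values as deposited (-0.52), scaling to the sum (-0.45), a pseudocount of 1 (-0.4) and removal of the GC trend (-0.49). Mrps36 was at 6.69, 8.82, 6.35, 6.57 and 7.06 FPKM in Het and 6.02, 3.33, 5.27, 3.3 and 3.9 in KO libraries (log2 -0.82 ± 0.15, adjusted p = 0.00592). Both of its pseudogenes were also lower (-0.73 ± 0.182 and -0.84 ± 0.16). Mrpl49 (chr19:6053630-6057751, − strand), a mitochondria-specific large subunit protein whose gene shares exon sequence with Syvn1, was at 0.605, 0.8, 0.8, 0.991 and 0.607 FPKM in Het and 0.383, 0.344, 0.73, 0.347 and 0.333 in KO libraries (log2 -0.82 ± 0.2, adjusted p = 0.0173). Mrpl39 (chr16:84717576-84735742, − strand), also of the large subunit, was at 0.272, 0.507, 0.293, 0.447 and 0.328 in Het and 0.301, 0.153, 0.254, 0.133 and 0.171 in KO libraries (log2 -0.71 ± 0.17, adjusted p = 0.0184). For both genes the highest KO library lay inside the Het range. The call of Mrpl39 was lost with scaling to the sum (-0.58, adjusted p = 0.0525) and, as were those of Mrpl49 (-0.34) and Mrpl50 (-0.56), with a pseudocount of 1 (-0.21).

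Mrpl3 (chr9:105053239-105079888, + strand), the counterpart of a bacterial protein beside the peptidyl transferase centre, was at 1.14, 1.2, 1.19, 1.27 and 1.04 FPKM in Het and 0.375, 0.908, 0.807, 0.83 and 0.87 in KO libraries, where replicate A was far below the others (log2 -0.7 ± 0.21, adjusted p = 0.0412). Its call was lost without any 1 of Het MII replicates A to D or KO MII replicates A to C, with an adjusted p of at most 0.0913. Mrps12 (chr7:28739641-28741820, − strand), the decoding centre protein whose bacterial counterpart carries streptomycin resistance mutations, was higher. It was at 1.99, 3.59, 2.27, 2.32 and 4.05 FPKM in Het and 6.56, 6.28, 5.76, 4.35 and 3.32 in KO libraries, which overlapped (log2 0.78 ± 0.21, adjusted p = 0.0252), and the call was lost without any 1 of Het MII replicates A, C and D or KO MII replicates A to C (adjusted p at most 0.0657). Mrpl21 (chr19:3282901-3292837, + strand), a large subunit protein with a bacterial counterpart whose gene overlaps Ighmbp2 on the other strand, was at 5.25, 7.07, 5.16, 5.03 and 7.05 in Het and 13.5, 10.7, 10.1, 6.83 and 8.96 in KO libraries (log2 0.63 ± 0.15, adjusted p = 0.0158), and lost its call without Het MII replicate D or KO MII replicate A (log2 at least 0.54). Other settings also ended these calls, that of Mrpl3 with scaling to the sum (adjusted p = 0.0707), no filter (0.0979) or a pseudocount of 1 (log2 -0.36), that of Mrps12 with no filter (0.0691), the GC trend removed (log2 0.57) or all 19 libraries in 1 fit (0.128), and that of Mrpl21 with a pseudocount of 1 (log2 0.57) or the GC trend removed (log2 0.49).

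In 2cell embryos 9 of 70 members tested were called between genotypes (12.9%, beside 18.1% of all 14051 genes). In libraries labelled KO, Mrpl9 and Mrpl37 were higher (8.53% of all genes were) and Mrps6, Mrpl28, Mrpl50, Mrpl22, Mrpl2, Mrpl18 and Mrpl20 lower (9.54% of all genes). The genotypes did not overlap for 10 members, 3 higher and 7 lower, or 14.3% beside 20% of all genes. The members' median was -0.08 and that of all genes 0.00 on the log2 scale. This direction depended on scaling. With each library scaled to its summed FPKM the median gene stood at 0.26 and the median member at 0.21, and 11 members were called, 9 higher and 2 lower in KO libraries, and with the values as deposited 3 higher and 6 lower. The 2 that were lower under scaling to the sum were Mrps6 and Mrpl50, and no called member changed sign.

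Mrps6 (chr16:92058270-92112227, + strand), a small subunit protein with a bacterial counterpart, was at 0.471, 0.745, 0.743, 1.03 and 0.892 FPKM in libraries labelled Het and at 0.288, 0.126, 0.165 and 0.327 in those labelled KO. The genotypes did not overlap (log2 -1.47 ± 0.25, adjusted p = 0.00535, two-sided exact permutation p = 0.0159, the smallest that 5 against 4 can give). Its exons overlap those of Slc5a3 on the same strand, which was at 0.599 ± 0.117 and 0.49 ± 0.0868 FPKM. Mrpl50 was at 7.37, 7.59, 5.33, 6.76 and 5.88 in Het and 3.63, 2.72, 3.93 and 2.9 in KO libraries (log2 -1.03 ± 0.17, adjusted p = 0.0047), again with no overlap. Zfp189, which starts 83 bases from Mrpl50 on the other strand, was higher in KO libraries (1.18 ± 0.214, adjusted p = 0.00669). Mrpl28 (chr17:26123520-26126613, + strand), a large subunit protein, was at 6.21, 7.61, 8.04, 5.15 and 5.78 in Het and 2.66, 1.24, 3.77 and 4.93 in KO libraries (log2 -1.22 ± 0.34, adjusted p = 0.0318), and lost its call without Het 2cell replicates A, B, C or E or KO 2cell replicate A (adjusted p at most 0.074).

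Mrpl18 (chr17:12911349-12916345, − strand) was at 29.4, 34.9, 25.8, 23.9 and 30.1 FPKM in Het and 19, 16.8, 16.4 and 21.2 in KO libraries, without overlap in the values as deposited (log2 -0.69 ± 0.15, adjusted p = 0.0119). Tcp1, a chaperonin subunit gene whose exons overlap it on the other strand, was lower too (-0.89 ± 0.193, adjusted p = 0.0124). Mrpl37 (chr4:107055874-107066868, − strand), a mitochondria-specific large subunit protein, was at 0.869, 0.736, 0.831, 0.826 and 0.814 in Het and 1.98, 1.22, 1.76 and 1.46 in KO libraries (log2 0.84 ± 0.16, adjusted p = 0.00741). Mrpl9 (chr3:94443318-94451130, + strand), a large subunit protein with a bacterial counterpart whose gene overlaps Oaz3 on the other strand, was at 2.03, 1.45, 1.65, 1.89 and 2.42 in Het and 2.46, 3.48, 4.12 and 5.73 in KO libraries, just without overlap (log2 0.94 ± 0.25, adjusted p = 0.0267). The other 3, all large subunit proteins with a bacterial counterpart, were Mrpl22, Mrpl2 and Mrpl20. Mrpl22 (chr11:58171661-58179565, + strand) was at 1.01, 1.45, 1.37, 1.78 and 1.55 in Het and 0.806, 0.582, 0.564 and 1.2 in KO libraries, which overlapped (log2 -0.86 ± 0.23, adjusted p = 0.0275). Mrpl2 (chr17:46646229-46650139, + strand) was at 5.57, 3.79, 5.6, 4.34 and 3.88 and at 2.8, 1.7, 3.33 and 3.09, without overlap (log2 -0.81 ± 0.21, adjusted p = 0.0271). Mrpl20 (chr4:155802878-155809975, + strand) was at 2.05, 2.57, 3.95, 3.83 and 3.59 and at 2.06, 1.98, 1.75 and 2.43, which overlapped (log2 -0.62 ± 0.2, adjusted p = 0.0496). Each of Mrpl9, Mrpl22, Mrpl2 and Mrpl20 lost its call without some single libraries, with adjusted p of at most 0.0705, 0.0741, 0.0583 and 0.11. For Mrpl9 these were Het 2cell replicates B and D and KO 2cell replicates B, C and D, for Mrpl22 Het B, D and E and KO A, B and C, for Mrpl2 Het C and KO A and B, and for Mrpl20 every library but Het A. Scaling to the sum ended the calls of Mrpl28, Mrpl22, Mrpl2, Mrpl18 and Mrpl20 (adjusted p 0.0751 to 0.36), and a pseudocount of 1 those of Mrps6 (log2 -0.54), Mrpl37 (0.49), Mrpl22 (-0.47) and Mrpl20 (-0.47). With no filter the calls of Mrpl28 (adjusted p = 0.0654), Mrpl9 (0.0503) and Mrpl20 (0.0757) were lost, and that of Mrpl20 also with the values as deposited (0.0846) or the GC trend removed (0.0667).

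**Figure D4:**
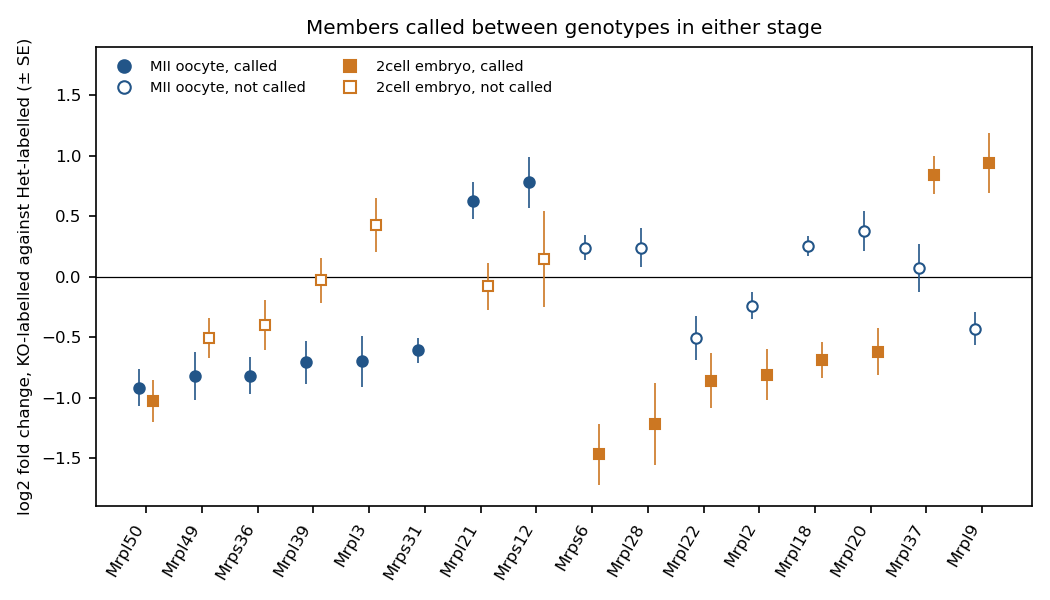
Log2 fold change of libraries labelled KO against Het with its SE (y axis) in MII oocytes (blue circles) and 2cell embryos (orange squares) for the 16 members called in either stage (x axis), filled where called. Only Mrpl50 is called in both, at -0.92 and -1.03. Mrps31 has no 2cell value because it was too low to test.

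Mrpl50 was the only member called in both stages. Over the 68 members tested in both, 34 had the same sign in MII and 2cell, and the changes had a Pearson correlation of -0.0161 and a Spearman correlation of -0.0583 taken over genes, whose values are not independent of each other. The difference between the genotype changes of the 2 stages was tested itself, in a fit of all 19 libraries, and 6 of 76 members were called (7.89%, beside 7.76% of all genes). It was higher in 2cell embryos for Mrpl9 (1.39 ± 0.279, adjusted p = 0.00551) and Mrpl3 (3.62% of all genes) and lower for Mrps6, Mrpl28, Mrpl20 and Mrpl18 (4.14% of all genes). Mrps6 stood out with -1.68 ± 0.26 (adjusted p = 0.000844). It rose from 0.0808 ± 0.0199 to 0.776 ± 0.208 FPKM over the transition in libraries labelled Het, by 2.11 ± 0.18 on the log2 scale, whereas in those labelled KO it was at 0.119 ± 0.0122 and 0.227 ± 0.0965, a change of 0.43 ± 0.19 that was not called. Mrpl18 was at 70.4, 83.0, 75.7, 74.7 and 91.7 FPKM in Het and 109, 104, 105, 84.6 and 99.3 in KO MII libraries, which overlapped (log2 0.25 ± 0.08, adjusted p = 0.0558, not called), so its difference of -0.91 (adjusted p = 0.00211) joins an uncalled higher mean in oocytes to the lower level in embryos. Mrpl3 fell by 1.15 from MII to 2cell in Het libraries (adjusted p = 6.95e-05) and was not called in KO libraries (0.00 ± 0.22), a difference of 1.15 ± 0.302 (adjusted p = 0.0266). The calls of Mrpl20 and Mrpl3 were lost without single libraries, at adjusted p of at most 0.0524 and 0.072. For Mrpl20 these were KO MII replicates B and E, Het 2cell replicates D and E and KO 2cell replicate B, and for Mrpl3 Het MII replicates A and C and KO 2cell replicates B and C. A pseudocount of 1 brought Mrps6 (-0.56), Mrpl20 (-0.58) and Mrpl3 (0.57) under the 1.5-fold limit, and Mrpl20 also lost its call with scaling to the sum (adjusted p = 0.0772).

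**Figure D5:**
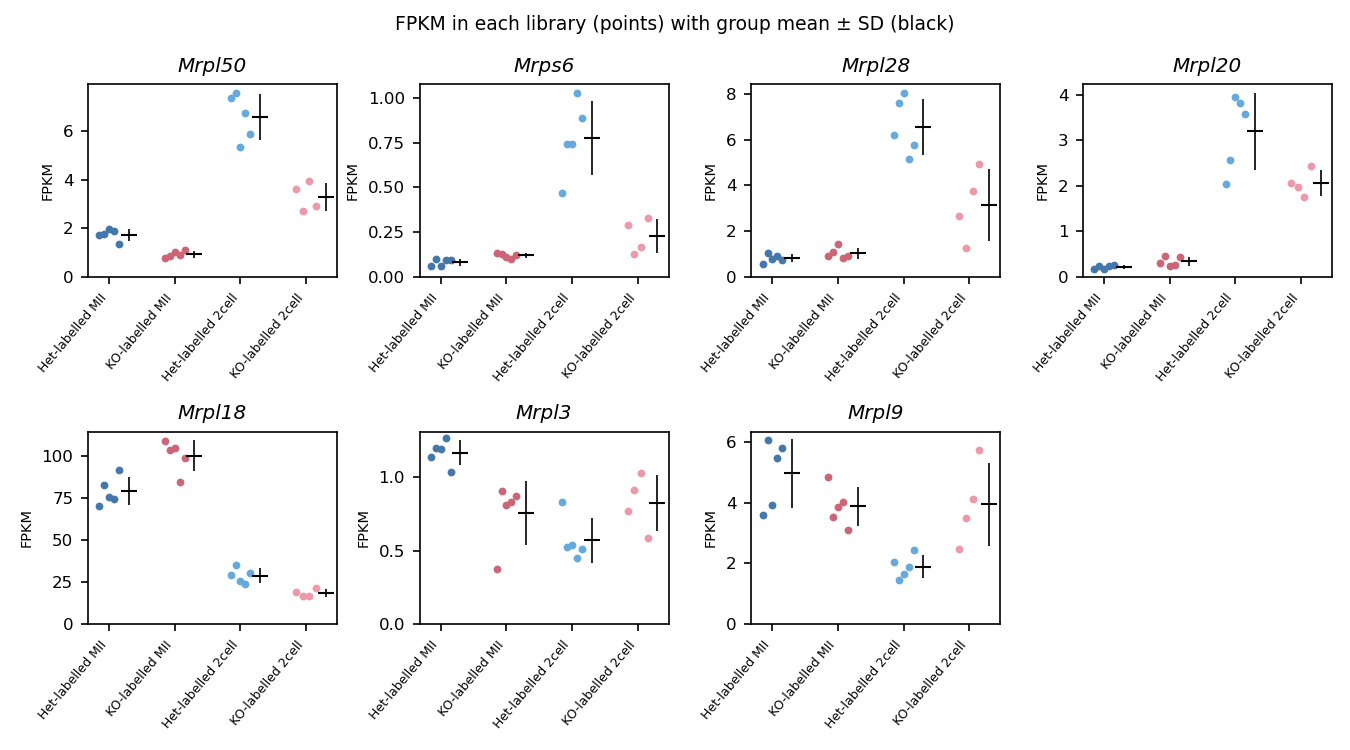
FPKM (y axis, from 0) in each library (points) of the 4 groups (x axis), with group mean ± SD in black, for Mrpl50 and for the 6 members whose genotype change differed between stages. Mrpl50 is lower in KO-labelled libraries at both stages, while Mrps6 and Mrpl28 are called lower in the 2cell embryo alone and Mrpl20 has a higher mean in KO-labelled oocytes and a lower one in KO-labelled embryos.

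CPEB proteins bind U-rich cytoplasmic polyadenylation elements in 3′UTRs, so the longest annotated 3′UTR of each member was searched for the DNA letters TTTTAT and TTTTAAT on the strand of the transcript. They were found in 37 of 78 members (47.4%) against 58.4% of annotated protein-coding genes with a 3′UTR, whose 3′UTRs are longer, and at 1.3 per kilobase of 3′UTR against 1.21. Of the members that fell into the 2cell stage in both genotypes 61.5% held 1, and of those that rose 30.4%, beside 68.4% and 47.0% of protein-coding genes that fell and rose. In 12 of the 37 an element began within 100 bases of the end of the annotated transcript. Of the 16 members called between genotypes in either stage, 7 held an element. They were 5 of the 6 that were lower in KO oocytes and neither of the 2 that were higher, beside 69.5% and 46.9% of protein-coding genes called lower and higher there. The 3′UTRs of these members had a median of 986 bases in the 6 and 272 in the 2. In 2cell embryos they were 2 of the 7 lower and 1 of the 2 higher, beside 65.5% and 53.2% of protein-coding genes. The element nearest the end of the annotated transcript is shown for these 7 members with up to 11 bases on each side, 5′ to 3′ on the strand of the gene and with the element in capitals, from GENCODE vM21 on GRCm38. It starts 69 bases from the transcript end in Mrpl50 (chr4:49512648-49512675, − strand), 77 in Mrpl49 (chr19:6053682-6053709, − strand), 102 in Mrpl18 (chr17:12911433-12911461, − strand), 196 in Mrps31 (chr8:22429459-22429486, + strand), 460 in Mrpl39 (chr16:84718019-84718046, − strand), 823 in Mrpl9 (chr3:94450297-94450324, + strand) and 1580 in Mrpl3 (chr9:105078298-105078325, + strand).
Mrpl50: atgaaattcacTTTTATgtatcacttta
Mrpl49: ttaatgcaagtTTTTATtgagctgtata
Mrpl18: tgatttcattgTTTTAATcaagggcttaa
Mrps31: ctaaatagaaaTTTTATcaaaattctcc
Mrpl39: cttctctgttgTTTTATttgagccagcg
Mrpl9: gggggtaaagcTTTTATcatcaattggt
Mrpl3: tattatatttaTTTTATttatttaaggc

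The rest of the mitochondrial translation apparatus was read from lists of its genes. Calls of these listed genes were not followed under the alternative settings used for the members. Of 5 mitoribosome proteins with other names, Aurkaip1, a small subunit protein, was higher in KO libraries in both stages, from 2.19 ± 0.732 to 3.95 ± 0.537 FPKM in MII (log2 0.78 ± 0.201, adjusted p = 0.0223) and from 7.77 ± 2.14 to 15 ± 3.53 in 2cell libraries (0.9 ± 0.211, adjusted p = 0.0165). The other 4 were called in neither. Dap3, a GTP-binding protein of the small subunit, fell into the 2cell stage by 3.62 on the log2 scale in Het and 3.44 in KO libraries, and Gadd45gip1 by 2.08 and 2.48. Of the assembly and rRNA modification factors, 3 of 17 tested were called, all lower in KO oocytes (17.6%, beside 12.9% of all genes called and 7.29% lower). They were Mterf3 (-1.38 ± 0.294, adjusted p = 0.0105), Gtpbp10, a GTPase of large subunit assembly (-0.64 ± 0.181, adjusted p = 0.032), and Fastkd2, which binds the large ribosomal RNA (-0.61 ± 0.166, adjusted p = 0.0274). In 2cell embryos 3 of 20 were called (15%, beside 18.1% of all genes), with the small subunit maturation factor Rbfa (1.67 ± 0.263, adjusted p = 0.00396) and the helicase Ddx28 (1.19 ± 0.278) higher and Mterf3 lower (-0.75 ± 0.203).

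Of the mitochondrial translation factors, limma called 0 of 13 tested in MII and 0 of 14 in 2cell libraries, with 1 and 4 at an unadjusted p below 0.05. Over the stages 9 fell and 2 rose among 15 in Het libraries and 8 fell and 3 rose in KO, beside 28.2% and 27.0% of all genes that fell and 38.2% that rose in each. Among those called in both, the elongation factors Tsfm and Gfm1 fell by 2.4 and 2.11 in Het libraries, and Tufm, which carries the aminoacyl-tRNA, rose by 1.14. Of 20 aminoacyl-tRNA synthetase genes and their relatives only 5 were high enough to test in MII and 7 in 2cell libraries, and 2 and 3 of them were called, beside 12.9% and 18.1% of all genes. The leucyl-tRNA synthetase Lars2 was higher in KO libraries at both stages, at 0.707 against 2.8 FPKM in MII (1.64 ± 0.36, adjusted p = 0.0117) and at 1.42 against 5.11 in 2cell libraries (1.73 ± 0.161, adjusted p = 0.00106). Rars2 was lower in KO oocytes (-0.81 ± 0.101, adjusted p = 0.0007). In KO embryos Hars2 was lower (-1.41 ± 0.418, adjusted p = 0.0407) and Mars2 higher (0.69 ± 0.214, adjusted p = 0.0492). Of the transcription and genome maintenance genes limma called 0 of 6 in MII (2 at an unadjusted p below 0.05), and 3 of 9 in 2cell embryos (33.3%, beside 18.1% of all genes). In 2cell embryos the DNA polymerase Polg was higher (1.31 ± 0.226, adjusted p = 0.00551). Its partner Polg2 (-0.84 ± 0.257, adjusted p = 0.0461) and the elongation factor Tefm (-1.22 ± 0.255, adjusted p = 0.0106) were lower.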

How the data were processed

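Pools of MII oocytes and 2cell embryos were sequenced after SMART-seq v4 amplification and Nextera XT library preparation. The authors trimmed reads with Trim Galore 0.4.1, aligned them to GRCm38 with HISAT2 2.0.5 and quantified genes in SeqMonk, and per their methods the deposited values are FPKM. The table itself is named as raw counts, but its values are not whole numbers, so they were taken as FPKM. Whether strand was used in counting is not given in the sources used here. Of the per-library columns, 0 were left unused. Libraries were grouped by their genotype and cell type labels. Coordinates are those of the deposited table, with each end set to the annotated last base.

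Depth was estimated from the FPKM worth of 1 fragment in 9120 genes with a single transcript. Of their low values 33.0% to 37.4% lay within 0.05 of a whole fragment, where 10% would by chance, so whole fragments were not recovered, the depth is approximate and no count test was run.

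FPKM were scaled by trimmed-mean factors (30% of ratios and 5% of levels trimmed), logged as log2(FPKM + 0.1) and tested with limma 3.58.1 (R 4.3.3, trended variance) over every gene with at least 0.1 FPKM in 5 MII, 4 2cell or, for stages, 4 of 19 libraries. Genotype was fitted within each stage, stage and its interaction with genotype in 1 fit of all 19. Calls needed a Benjamini-Hochberg adjusted p below 0.05 and over 1.5-fold. Single members also had a two-sided exact permutation test on log2(FPKM + 0.1) of the deposited values, without scaling. Overlap between groups of libraries was likewise read from the deposited values. The steps were tested on simulated data. Sequences came from RefSeq (GRCm38.p6) and GENCODE vM21, read with Python 3.11.15.

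Members named are those called between genotypes or in the interaction, the 5 largest rises and falls shared by both genotypes, the 5 highest in each stage, those too low to test, and members with a known site in the ribosome. Members and gene lists were chosen with earlier results of these data known. Alternatives were other scalings, filters and pseudocounts, removal of a GC trend, a replicate block, other sample sets and leaving out each library.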

Additional observations from a re-analysis of the deposited data

Results flagged for a closer look

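A single library stood far from the others of its group (Dixon's test) in 13 of 172 combinations of named member and group, where chance gives about 1 in 20. Of these, 4 were in KO MII replicate A, at 0.375 FPKM for Mrpl3, the lowest of its group, and at 13.2 for Mrpl41, 0.441 for Mrps18a and 0.612 for Mrps30, the highest of theirs. The others in oocytes were Mrpl49 at 0.73 FPKM in KO MII replicate C and Mrps36 at 8.82 in Het MII replicate B, both the highest. In 2cell embryos the highest of their group were Mrpl3 at 0.834 and Mrps36 at 0.454 FPKM in Het replicates A and B and Mrps35 at 0.0985 in KO replicate A. The lowest were Mrps14 at 13.6 in Het replicate D, Mrpl49 at 7.0 in KO replicate B, and Mrpl47 at 0.277 and Mrps36 at 0.151 in KO replicate C.

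The genotype change in 2cell embryos differed from that in MII oocytes, by the interaction term of the fit of all 19 libraries, for 6 members. On the log2 scale the difference was -1.68 for Mrps6, -1.44 for Mrpl28, -1.0 for Mrpl20 and -0.91 for Mrpl18, and 1.39 for Mrpl9 and 1.15 for Mrpl3.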

How the results depend on the processing

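Replicate letters did not pair the libraries, since deviations of same-lettered libraries correlated between -0.144 and 0.0939. With the letters as a replicate block, 5 members were called between genotypes in MII and 0 in 2cell embryos, where limma gave 13 an unadjusted p below 0.05 and the calls over all genes went from 2538 to 369. The calls lost were those of Mrpl3, Mrpl39 and Mrps12 in MII (adjusted p 0.0787 to 0.0834) and of all 9 members in 2cell embryos, Mrpl50 included (-1.06, adjusted p = 0.0614), with adjusted p of 0.0544 for Mrps6, 0.065 for Mrpl37, 0.0921 for Mrpl18 and at most 0.152. The interaction call of Mrpl3 was lost too (1.14, adjusted p = 0.0658), and 0 of 55 and 53 stage calls. A mean of at least 5 FPKM left 15 members to test in MII and 22 in 2cell embryos, and 2 and 3 of them were called, 12 and 13 of 15 between stages in Het and KO, and 1 of 15 in the interaction. With a pseudocount of 1 FPKM 2 members were called in MII and 5 in 2cell embryos (38 and 36 between stages), and the cause was not tested. The scalings named above moved the split of higher and lower calls, and with the GC trend removed it was 0 higher and 7 lower in MII and 2 and 10 in 2cell embryos. Of 131 calls of single members, followed over 2375 alternative values, 0 changed sign and 185 values were no longer called. The members' median changed sign to 0.03 in MII and 0.09 between stages in Het with the values as deposited, and to 0.1 in MII and 0.21 in 2cell embryos with each library scaled to its sum, and in the interaction it lay on either side of 0, between -0.08 and 0.1. With each library scaled to its sum the members' summed level was 495.0 and 536.0 in Het and KO oocytes and 339.0 and 389.0 in Het and KO embryos. Leaving out 1 library at a time gave 6 to 9 members in MII and 5 to 9 in 2cell embryos, with 5 without Het 2cell replicate B or KO 2cell replicate B. It gave 52 to 56 and 50 to 54 members between stages in Het and KO and 5 to 9 in the interaction. Calls within 1.5 times of those reported were found under all other alternatives. By the estimated depth, which is approximate, a member of median length under 0.212 FPKM would rest on fewer than 10 fragments.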
